A study of Mus musculus with 4 samples.

Results

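The genes described here encode the nuclear subunits of respiratory complex I, together with proteins that help to assemble it. They were taken from the deposited FPKM table (fragments scaled by gene length and library size) as every row annotated protein_coding whose symbol starts with Nduf. The rule found 46 genes among 54532 rows, of which 22046 were annotated as protein-coding, and it used no measured value. Of the 46 genes, 7 encode core subunits, 29 encode accessory subunits, 8 encode assembly factors, and 2, Ndufa4 and Ndufa4l2, carry the family name but are now counted with complex IV (cytochrome c oxidase).

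Complex I oxidises NADH, passes its electrons through iron-sulfur clusters to ubiquinone, and pumps protons out of the mitochondrial matrix. It has a matrix arm, which holds the NADH-binding (N) and ubiquinone-binding (Q) modules, and a membrane arm that pumps protons. The core subunits carry out catalysis, the accessory subunits surround and stabilise them, and assembly factors join the modules without staying in the finished enzyme. The core of the membrane arm is encoded by the 7 mt-Nd genes of mitochondrial DNA, so complex I needs transcripts from both genomes.

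The series held 4 mouse RNA-seq libraries from B16 melanoma tumours, labelled as tumour-infiltrating CD4+ T cells. Group WT had 2 libraries with the genotype WT, and group Piezo1KO had 2 with the genotype Piezo1KO, a loss of the mechanically gated cation channel Piezo1. All 4 shared the treatment label of the tumour microenvironment, and the comparison asks how expression in cells labelled Piezo1KO differed from WT. The labels used here give no strain, age, promoter or Cre, no deleted part of Piezo1, and nothing on whether libraries within a group stem from different animals, so p-values measure only the spread between these libraries.

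Piezo1 itself was measured at 27.8 FPKM in WT 1, 27.6 in WT 2, 18.7 in Piezo1KO 1 and 7.64 in Piezo1KO 2. Both Piezo1KO libraries were below both WT libraries, but the difference did not pass (log2 fold change -1.14, limma adjusted p = 0.166). Reads assigned to genes numbered 13789266 to 15892797 per library. The share of these reads from mitochondrial genes was 3.86% in WT 1, 2.99% in WT 2, 20.1% in Piezo1KO 1 and 48.3% in Piezo1KO 2. The T cell label was not borne out by marker levels: 11 T cell markers summed to 2.38, 2.19, 15.6 and 10.3 FPKM in WT 1, WT 2, Piezo1KO 1 and Piezo1KO 2, with 5, 1, 0 and 2 of them at 0. The 7 melanocyte markers summed to 5700 (WT 1), 5750 (WT 2), 6359 (Piezo1KO 1) and 6391 FPKM (Piezo1KO 2). The libraries are therefore named only by their genotype label. Piezo1KO libraries also had higher erythroid markers (5 of 5 passed, summed FPKM 389 and 244 in WT against 5124 and 8472) and higher myeloid markers (2 of 7 passed, 49.6 and 37.4 against 369 and 184). Over all tested genes, 0.731% passed higher (limma). The 2 myeloid genes, S100a8 and S100a9, had WT means of 0.287 and 0.331 FPKM. They met the filter of a mean of at least 1 FPKM only through the Piezo1KO libraries. In such bulk libraries, fewer cells of a type and less RNA per cell cannot be told apart, and the part of the mitochondrial share or of these markers in the results below was not tested.

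The Nduf genes had higher FPKM in Piezo1KO than in WT almost throughout, but 1 of the 46 passed the test across all genes. That gene was Ndufa12, an accessory subunit of the matrix arm, which rose by 2.15 on the log2(FPKM + 1) scale. Accessory subunits lay highest relative to WT, core subunits lower, and most assembly factors close to their WT level in deposited FPKM. These roles also differed in gene length, with medians of 1251, 2178 and 1802 bases, and the part of length was not tested. Scaled to all assigned reads, the medians of core subunits and assembly factors were below 0, as was that of all tested genes (-0.67). Scaled to reads outside mitochondrial genes, the medians of these roles were 0.47 and 0.10, against -0.20 over all tested genes. The family's share of all assigned reads, by contrast, was almost flat across the 4 libraries.

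**Figure D1:**
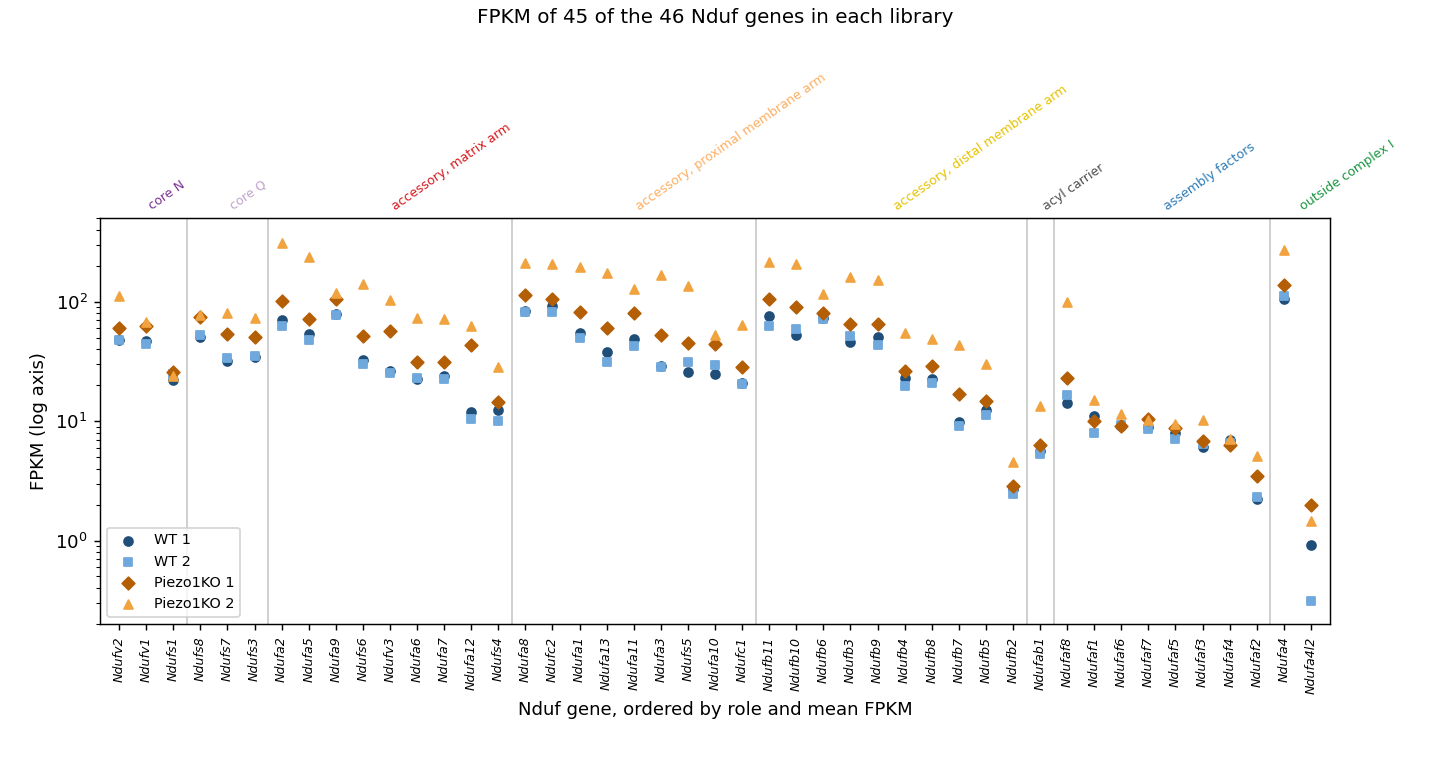
FPKM (log axis) of 45 of the 46 Nduf genes, ordered by role and mean level, with 1 point for each of the 4 libraries and no error bars. Over all 46, Piezo1KO 2 lies above Piezo1KO 1 for 43 genes, against 5265 of 11085 tested genes. The points of most accessory subunits are further apart than those of most assembly factors, with Ndufaf8 as an exception.

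All 46 genes passed the filter of a mean of at least 1 FPKM. Of them 1, Ndufa4l2, had a WT mean under 1 and met the filter only through the Piezo1KO libraries. The counts below include it. In the limma fit on log2(FPKM + 1), 122 of 11085 tested genes passed an adjusted p of 0.05 (1.1%), 81 of them higher in Piezo1KO (0.731%). Of the Nduf genes, 1 passed higher and none lower (limma), while 20 had an unadjusted p under 0.05, all higher, against 14.9% of tested genes. Both Piezo1KO libraries exceeded both WT libraries for 42 of the 46, where 33.9% of tested genes did so, and 35.6% of tested genes lay below in both, as no Nduf gene did. The groups overlapped for Ndufaf1, Ndufaf4, Ndufaf6 and Ndufs1. The median log2 fold change was 0.82 over the family and -0.01 over all tested genes.

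The WT pair was far more uniform than the Piezo1KO pair. The higher of the 2 WT values exceeded the lower by a median factor of 1.08, and the corresponding factor for the Piezo1KO pair was 1.87. In Piezo1KO 1 the median Nduf gene was at 1.38 times its WT mean, and in Piezo1KO 2 at 2.51 times. The order Piezo1KO 2, Piezo1KO 1, then both WT libraries held for 40 of the 46 genes, and its share over all tested genes was not computed. Piezo1KO 2 exceeded Piezo1KO 1 for 43 of the 46, against 5265 of 11085 tested genes. Without Piezo1KO 1, 39 of the 46 passed, against 27.5% of all tested genes passing higher, and without Piezo1KO 2, 20 passed, against 9.71%. In each of those fits the lone Piezo1KO library was taken to vary like the WT pair, which was the tighter pair, and the count of passing family members therefore changed with which library was used.

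The summed FPKM of the 46 genes was 1634 in WT 1, 1586 in WT 2, 2324 in Piezo1KO 1 and 4608 in Piezo1KO 2. Whole reads recovered from FPKM and gene length gave 50392, 51286, 53123 and 47857 Nduf reads in the same order. These were 0.322% (exact 95% Clopper-Pearson interval 0.319 to 0.325) of all assigned reads in WT 1, 0.323% (0.320 to 0.326) in WT 2, 0.346% (0.344 to 0.349) in Piezo1KO 1 and 0.347% (0.344 to 0.350) in Piezo1KO 2. The Piezo1KO intervals lay above the WT intervals, by a margin that was small beside the difference in summed FPKM.

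Of the reads outside mitochondrial genes, the family took 0.335% in WT 1, 0.333% in WT 2, 0.434% in Piezo1KO 1 and 0.671% in Piezo1KO 2. The difference between Piezo1KO and WT therefore depended on the denominator, and the intervals cover counting error only, since reads copied by PCR are not independent molecules. Read totals implied by the deposited FPKM were 1.26, 1.28, 0.962 and 0.544 times the assigned reads in WT 1, WT 2, Piezo1KO 1 and Piezo1KO 2, so the deposited values were not scaled to assigned reads by a common factor. Scaled to all assigned reads, the family's median log2 fold change was 0.048, with 29 genes positive and 17 negative. That of all tested genes was -0.67, with 1489 of 11085 positive. The family's median exceeded the all-gene median by 0.71 on that scale and by 0.82 on the deposited scale. Scaled to reads outside mitochondrial genes, the family's median was 0.61, with 43 genes positive and 3 negative, against -0.20 over all tested genes. A 2 against 2 exact permutation test cannot give a p below 0.333, so no p is given for these sums.

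**Figure D2:**
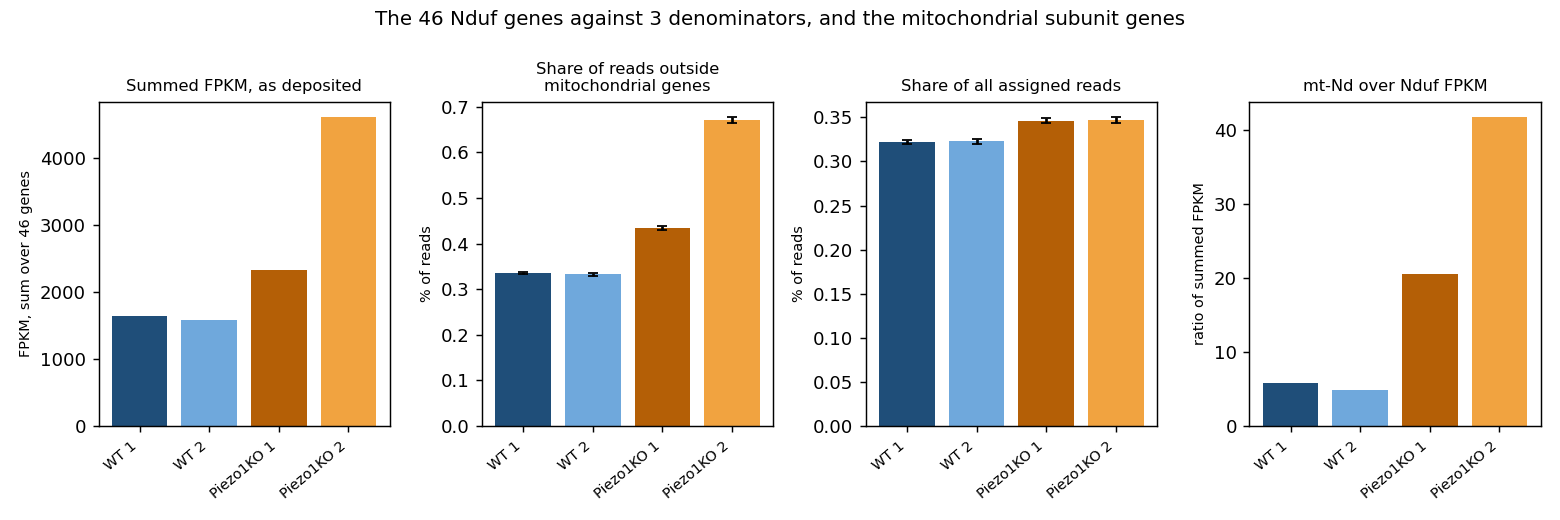
Summed FPKM of the Nduf genes and their share of reads (percent, with 95% intervals for counting error), and the summed FPKM of mt-Nd genes over that of Nduf genes, as 1 bar for each of the 4 libraries. The share of all assigned reads stays between 0.322% and 0.347%, whereas the share of reads outside mitochondrial genes reaches 0.671% in Piezo1KO 2.

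Among the 7 nuclear core subunits none passed (limma; 5 had an unadjusted p under 0.05, all higher, against 14.9% of tested genes). Both Piezo1KO libraries lay above both WT libraries for 6, against 33.9% of tested genes. The median log2 fold change of the 7 was 0.69 as deposited and -0.11 scaled to all assigned reads, where 2 of 7 were positive. Scaled to reads outside mitochondrial genes it was 0.47, with 6 of 7 positive, against -0.20 over all tested genes. It was 0.069 after quantile normalisation and 0.45 with the length trend removed. Among these settings the median was thus negative only when scaled to all assigned reads. There, 1489 of 11085 tested genes were positive, and the all-gene median was -0.67, below that of the core subunits. As deposited, the median was 0.87 without Piezo1KO 1 and 0.52 without Piezo1KO 2. In the N module, Ndufv1, which binds NADH and flavin, was at 47.1 FPKM in WT 1, 44.5 in WT 2, 63.0 in Piezo1KO 1 and 67.8 in Piezo1KO 2 (log2 fold change 0.50, SE 0.15, limma adjusted p = 0.142). Its partner Ndufv2, an iron-sulfur subunit, was at 48.1, 47.5, 60.9 and 113 FPKM in the same order (0.78, SE 0.32, adjusted p = 0.191). The Piezo1KO pair was close for Ndufv1 and wide apart for Ndufv2. Ndufs1, the largest iron-sulfur subunit, was at 22.1 FPKM in WT 1, 25.1 in WT 2, 26.0 in Piezo1KO 1 and 24.1 in Piezo1KO 2. Its groups overlapped, as for no other core subunit (log2 fold change 0.083, limma adjusted p = 0.700).

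The Q module carries electrons from the N module to ubiquinone. Ndufs7, which holds the last iron-sulfur cluster before ubiquinone, was at 32.0 FPKM in WT 1, 33.8 in WT 2, 54.0 in Piezo1KO 1 and 81.0 in Piezo1KO 2 (log2 fold change 0.99, SE 0.24, limma adjusted p = 0.127). Ndufs3, an early building block of the Q module, was at 34.6, 35.1, 51.2 and 73.3 FPKM in that order (0.80, adjusted p = 0.137). For both genes the Piezo1KO libraries lay above WT, with Piezo1KO 2 the higher. Ndufs8, a subunit with iron-sulfur clusters, was at 50.4, 52.7, 74.6 and 76.9 FPKM (0.55, adjusted p = 0.135). Ndufs8 and Ndufv1 lie near each other on chromosome 19, 94779 bases apart, and for both the 2 Piezo1KO libraries were close to each other. That closeness was not particular to this pair, since Ndufs1 on chromosome 1 and Ndufaf7 on chromosome 17 had it too.

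Accessory subunits were higher in both Piezo1KO libraries than in both WT libraries for 29 of 29, against 33.9% of tested genes. Of the 29, 1 passed and 13 had an unadjusted p under 0.05, all higher (limma). Over all tested genes these shares were 0.731% and 14.9%. The log2 fold changes of the accessory subunits ran from 0.38 to 2.15 with a median of 1.07. The median was 0.27 when scaled to all assigned reads, with 23 of 29 positive, and 0.85 when scaled to reads outside mitochondrial genes, with 29 positive. As deposited, the median was 1.64 without Piezo1KO 1 and 0.47 without Piezo1KO 2. On the deposited scale the medians were 1.35 for 9 genes of the matrix arm, 1.12 for 9 of the proximal membrane arm and 0.94 for 10 of the distal membrane arm, and the remaining gene was Ndufab1.

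Ndufa12 (ENSMUSG00000020022) lies on the plus strand of chromosome 10 from 94198720 to 94221443 in GRCm38. Its product sits at the junction of the N and Q modules, where the assembly factor Ndufaf2 is its paralogue. Ndufa12 was at 11.9 FPKM in WT 1, 10.3 in WT 2, 43.6 in Piezo1KO 1 and 63.3 in Piezo1KO 2. The WT mean was 11.1 ± 1.12 FPKM (SD, n = 2), the Piezo1KO mean was 53.5 ± 13.9 FPKM (SD, n = 2), and the groups did not overlap. The log2 fold change was 2.15 with SE 0.22 (limma adjusted p = 0.0433). Its recovered reads numbered 369 in WT 1, 330 in WT 2, 1010 in Piezo1KO 1 and 744 in Piezo1KO 2, so it was higher in raw reads too. Scaled to all assigned reads the log2 fold change was 1.37 (limma adjusted p = 0.0211). The call was lost without WT 1 (adjusted p = 0.461) and without WT 2 (adjusted p = 0.600), where 1 WT library was left and the spread came from the Piezo1KO pair. It was also lost with no filter on low values (adjusted p = 0.171) and with the length trend removed (adjusted p = 0.0579).

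The accessory subunits next in size did not pass, and for most of them Piezo1KO 2 stood far above Piezo1KO 1. Ndufa3, a small subunit of the proximal membrane arm, was at 29.0 FPKM in WT 1, 28.6 in WT 2, 52.7 in Piezo1KO 1 and 169 in Piezo1KO 2 (log2 fold change 1.68, SE 0.57, limma adjusted p = 0.156). Ndufa13, also known as GRIM-19, was at 38.2, 31.3, 60.4 and 174 FPKM in that order (1.54, SE 0.53, adjusted p = 0.158). For both genes the difference between the Piezo1KO libraries was larger than that between Piezo1KO 1 and WT. Ndufv3, a small accessory subunit of the N module, was at 26.1, 25.2, 57.2 and 104 FPKM (1.55, SE 0.31, adjusted p = 0.117). Ndufa2, a matrix-arm subunit with a thioredoxin-like fold, was at 71.0, 62.5, 102 and 313 FPKM (1.41, adjusted p = 0.183). Ndufa2 had the highest FPKM of the 46 genes in Piezo1KO 2.

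The remaining accessory subunits fall outside the rule for named genes and are given to account for the members. In the matrix arm, Ndufs4, whose loss in mice is a model of Leigh syndrome, was at 12.5 FPKM in WT 1, 9.9998 in WT 2, 14.3 in Piezo1KO 1 and 28.2 in Piezo1KO 2 (log2 fold change 0.80). Ndufs6, a zinc-binding subunit, was at 32.6, 30.1, 52.1 and 141 FPKM (1.42), and Ndufa5 at 53.6, 48.2, 71.6 and 239 FPKM (1.35). The log2 fold changes of Ndufa6 and Ndufa7 were 1.05 and 1.01. In all of these Piezo1KO 2 was more than 1.87 times Piezo1KO 1, the median factor of the family.

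In the proximal membrane arm, Ndufa1, an X-linked subunit needed for assembly, was at 54.6 FPKM in WT 1, 50.0 in WT 2, 82.5 in Piezo1KO 1 and 196 in Piezo1KO 2 (log2 fold change 1.27). Ndufa10, a kinase-like subunit, was at 24.6, 29.6, 44.3 and 52.8 FPKM (0.82), and Ndufa11 at 49.3, 43.1, 80.8 and 127 FPKM (1.12). Ndufa10 differed from its neighbours in that its Piezo1KO libraries were close to each other. The others were Ndufs5 (log2 fold change 1.43), Ndufc1 (1.00), Ndufa8 (0.90) and Ndufc2 (0.77). In the distal membrane arm, Ndufb7 was at 9.76, 9.12, 17.0 and 43.1 FPKM (1.43), and Ndufb11, the other X-linked member, at 75.7, 62.9, 106 and 217 FPKM (1.13). Below these in log2 fold change came Ndufb9 (1.08), Ndufb3 (1.07), Ndufb4 (0.82), Ndufb5 (0.77) and Ndufb8 (0.76), while Ndufb10 lay between Ndufb7 and Ndufb11 at 1.28.

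The smallest accessory differences were those of the distal-arm subunits Ndufb2, with a log2 fold change of 0.38, and Ndufb6, with 0.42, and of Ndufa9 in the matrix arm, with 0.50 (3 genes named after their values were seen). Ndufab1, the mitochondrial acyl carrier protein, which also serves fatty acid synthesis, was at 5.64 FPKM in WT 1, 5.36 in WT 2, 6.33 in Piezo1KO 1 and 13.5 in Piezo1KO 2 (log2 fold change 0.67, limma adjusted p = 0.254). The gene for the distal-arm subunit B1 is listed as Ndufb1-ps with a non-coding biotype and so fell outside the rule. It was at 15.4, 14.2, 15.3 and 72.3 FPKM in the same order, so Piezo1KO 1 lay within the WT range and Piezo1KO 2 far above it.

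Scaled to all assigned reads, the 8 assembly factors named Ndufaf had a median log2 fold change of -0.43 (2 of 8 positive), against -0.67 over all tested genes. With the length trend removed their median was -0.00075, and as deposited it was 0.30. None passed (limma; 1 had an unadjusted p under 0.05, higher, against 14.9% of tested genes). Both Piezo1KO libraries lay above both WT libraries for 5, against 33.9% of tested genes. Ndufaf4, which acts in early assembly of the Q module, was at 6.95 FPKM in WT 1, 6.63 in WT 2, 6.29 in Piezo1KO 1 and 7.15 in Piezo1KO 2 (log2 fold change -0.015, limma adjusted p = 0.942). It had the lowest log2 fold change of the 46. Ndufaf7, a methyltransferase needed for complex I assembly, was at 8.87, 8.67, 10.3 and 10.3 FPKM (0.21, adjusted p = 0.281). Ndufaf5, a hydroxylase that modifies Ndufs7, was at 7.99, 7.14, 8.79 and 9.55 FPKM (0.25, adjusted p = 0.265). Ndufaf6, which takes part in assembly of the matrix arm, was at 9.12, 9.31, 9.11 and 11.6 FPKM (0.14, adjusted p = 0.549). In deposited FPKM these 4 genes varied little between libraries, and their log2 fold changes ran from -0.015 to 0.25. Scaled to all assigned reads they ran from -0.71 (Ndufaf4) to -0.47 (Ndufaf5), where the all-gene median was -0.67.

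Ndufaf8, which works with Ndufaf5, stood apart from the other assembly factors at 14.3 FPKM in WT 1, 16.7 in WT 2, 22.8 in Piezo1KO 1 and 99.99 in Piezo1KO 2 (log2 fold change 1.58, SE 0.70, limma adjusted p = 0.210). Most of that difference came from Piezo1KO 2. The other 3, outside the rule for named genes, were Ndufaf2 (log2 fold change 0.68), Ndufaf3 (0.37) and Ndufaf1 (0.36). Outside the Nduf names, 12 of 13 listed complex I assembly factors were tested, and none passed (limma; 1 had an unadjusted p under 0.05, higher). Their median log2 fold change was 0.096, and -0.65 scaled to all assigned reads, with both Piezo1KO libraries above both WT libraries for 4 and below for 2 as deposited. Of these, Dmac1, a distal membrane-arm factor, was at 26.0, 25.4, 34.3 and 57.6 FPKM (0.77, adjusted p = 0.164), and Tmem126a had a log2 fold change of 0.57 (adjusted p = 0.315).

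Ndufa4, the complex IV subunit, had one of the highest levels of the family at 105 FPKM in WT 1, 112 in WT 2, 139 in Piezo1KO 1 and 273 in Piezo1KO 2 (log2 fold change 0.84, SE 0.36, limma adjusted p = 0.203). Its paralogue Ndufa4l2, known for induction by hypoxia, had the lowest at 0.926, 0.314, 1.98 and 1.46 FPKM, from 20, 7, 32 and 12 reads (0.77, adjusted p = 0.161). For both, the Piezo1KO libraries lay above WT, but Ndufa4l2 rested on few reads. In reads, its groups overlapped. With a WT mean of 0.620 FPKM, it met the filter only through the Piezo1KO libraries, so its place in the family's counts is no support for a difference.

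**Figure D3:**
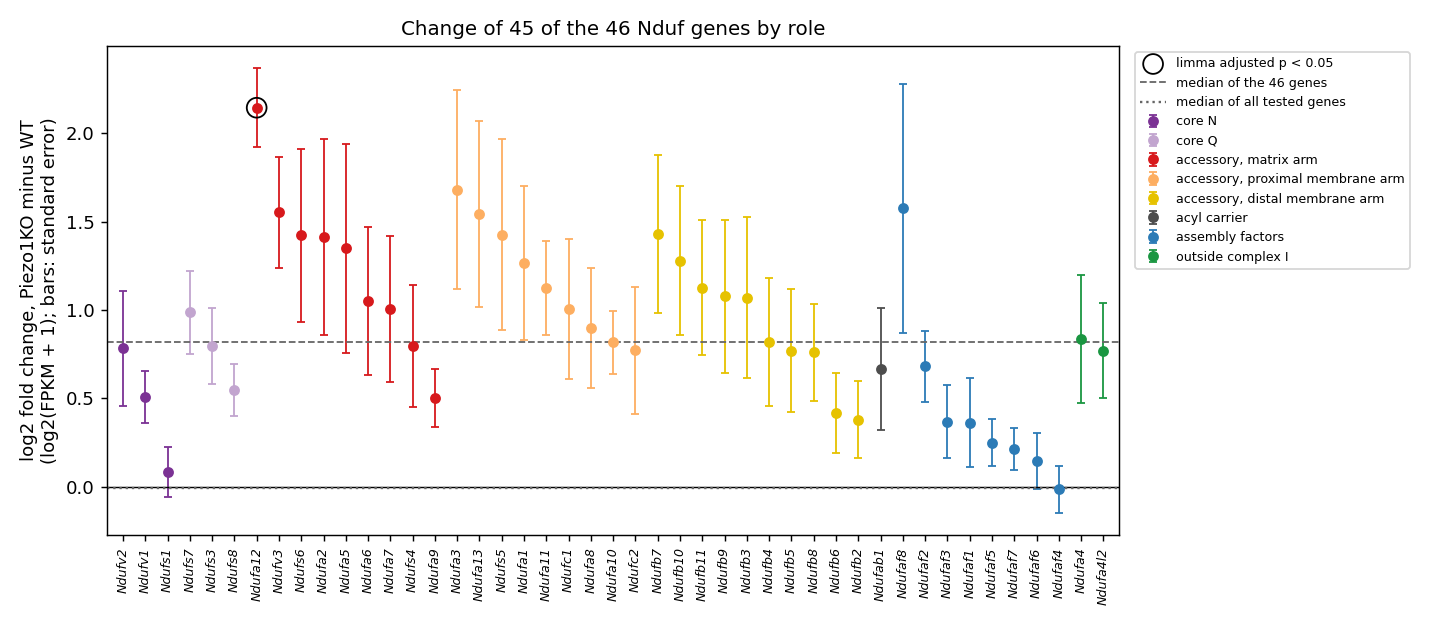
Log2 fold change of 45 of the 46 Nduf genes (Piezo1KO minus WT, log2(FPKM + 1) scale) with standard errors, coloured by role. Ndufa12 at 2.15 is the one gene past the adjusted threshold, and Ndufaf4 at -0.015 is the lowest.

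The differences between roles were also described within each library, as each gene's log2(FPKM + 1) minus the mean of the 46, which is free of the library's scale apart from the pseudocount. On this measure 11 genes were higher in both Piezo1KO libraries than in both WT libraries, all 11 accessory subunits. A further 16 were lower, namely 3 core subunits, 7 accessory subunits and 6 assembly factors, and 19 overlapped. Centring on the family's own mean places some members lower by construction. Ndufv2 was lower on this measure, although its FPKM was higher in both Piezo1KO libraries than in both WT libraries. The share of all tested genes on this measure was not computed. Ndufa12 was at -0.97 in WT 1, -1.10 in WT 2, 0.36 in Piezo1KO 1 and 0.07 in Piezo1KO 2, and so passed from below the family mean to above it. Ndufs1 was at -0.13, 0.10, -0.37 and -1.28 in the same order, and Ndufaf4 at -1.67, -1.67, -2.25 and -2.91. The median change relative to the family was 0.18 for accessory subunits, -0.20 for core subunits and -0.59 for assembly factors. The summed FPKM of accessory subunits over that of core subunits was 3.35 in WT 1, 3.12 in WT 2, 3.41 in Piezo1KO 1 and 5.68 in Piezo1KO 2, so the shift between these roles in summed level was large in Piezo1KO 2 and slight in Piezo1KO 1.

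The order of levels within the family was nearly the same in the WT libraries and Piezo1KO 1. Across the 46 genes, which are not independent replicates and share each library's depth, Spearman's rho of FPKM was 0.988 between the WT libraries and 0.985 and 0.980 between each of them and Piezo1KO 1. It was 0.914, 0.893 and 0.922 between Piezo1KO 2 and WT 1, WT 2 and Piezo1KO 1. Piezo1KO 2 thus had the most different order of the 4.

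Gene length moved with the fold change, over all genes and within the family. Over 4 equal classes of the tested genes by length, from short to long, the median log2 fold change was 0.50, 0.11, -0.11 and -0.30. Nduf genes are short, with a median length of 1635 bases against 3991 for all tested genes. The 11 shortest members (419 to 963 bases) had a median log2 fold change of 1.13, the next 18 (1022 to 1916 bases) 1.00, and the 17 longest (2101 to 8086 bases) 0.69. Spearman's rho between length and log2 fold change was -0.469 over the 46 genes and -0.522 over all tested genes, given as a description. With the length trend removed, the family's median log2 fold change was 0.525, 40 genes were positive, and none passed (limma; 13 had an unadjusted p under 0.05). By role the medians were then 0.63 for accessory subunits, 0.45 for core subunits and -0.00075 for assembly factors. Ndufa12 was then at 1.72 (limma adjusted p = 0.0579), and the part of length in the other differences was not tested.

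**Figure D4:**
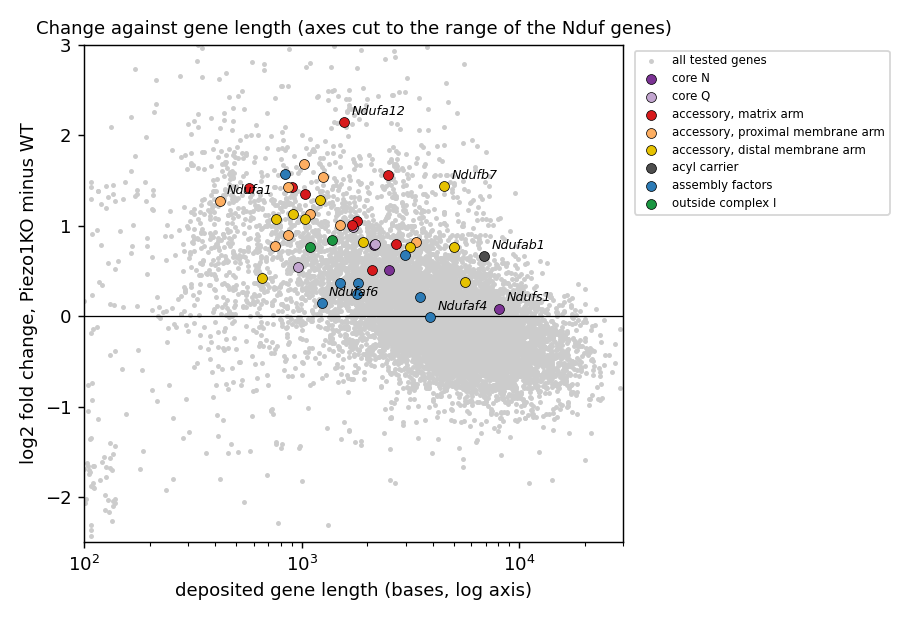
Log2 fold change (Piezo1KO minus WT) against deposited gene length in bases (log axis), for 45 of the 46 Nduf genes by role, drawn over all tested genes, of which some lie outside the plotted range. Shorter genes lie higher in both sets, and Ndufa12 lies above the other Nduf genes.

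The deposited length is the union of a gene's annotated exons and not the length of the main transcript. For 11 members it was over 2 times the principal transcript, at most 7.26 times for Ndufb7, whose 4522 bases compare with 623. Levels of such genes are understated per transcript, whereas fold changes do not depend on the length used, apart from the pseudocount. For 19 members, exon bases were shared with another annotated gene, and no source used here gives the strand setting of the counting, so reads of the pair cannot be told apart.

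The sequence before the gene start was examined because the members had similar directions, and it is shown for the 2 members with the highest and the 2 with the lowest log2 fold change that had an entry in the promoter table. Sequences are from RefSeq, build GRCm38.p6, which held 40 of the 46 members. Each line gives the 250 bases before the RefSeq start on the plus strand, in lower case, with matches to the core of the nuclear respiratory factor 1 (NRF1) motif in capitals. The RefSeq start of Ndufa12 lies 315 bases inside the deposited gene, so its stretch falls within the deposited coordinates, whereas those of the other 3 lie before the deposited start. The places are chr10:94198785-94199034 for Ndufa12, chr7:3617123-3617372 for Ndufa3, chr17:78936885-78937134 for Ndufaf7 and chr4:24897833-24898082 for Ndufaf4.
Ndufa12: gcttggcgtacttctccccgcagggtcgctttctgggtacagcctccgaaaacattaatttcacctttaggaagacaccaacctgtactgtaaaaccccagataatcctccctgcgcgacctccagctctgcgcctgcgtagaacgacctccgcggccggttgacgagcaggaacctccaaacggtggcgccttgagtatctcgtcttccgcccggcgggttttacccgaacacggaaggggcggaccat
Ndufa3: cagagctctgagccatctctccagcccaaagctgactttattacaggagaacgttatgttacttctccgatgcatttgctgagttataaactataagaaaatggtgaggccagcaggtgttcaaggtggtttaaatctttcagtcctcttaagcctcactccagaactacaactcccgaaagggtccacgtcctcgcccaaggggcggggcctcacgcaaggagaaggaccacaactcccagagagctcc
Ndufaf7: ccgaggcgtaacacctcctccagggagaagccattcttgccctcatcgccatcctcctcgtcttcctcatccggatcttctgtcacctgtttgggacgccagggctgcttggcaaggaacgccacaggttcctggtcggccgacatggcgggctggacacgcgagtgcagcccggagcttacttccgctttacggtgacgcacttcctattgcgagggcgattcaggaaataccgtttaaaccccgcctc
Ndufaf4: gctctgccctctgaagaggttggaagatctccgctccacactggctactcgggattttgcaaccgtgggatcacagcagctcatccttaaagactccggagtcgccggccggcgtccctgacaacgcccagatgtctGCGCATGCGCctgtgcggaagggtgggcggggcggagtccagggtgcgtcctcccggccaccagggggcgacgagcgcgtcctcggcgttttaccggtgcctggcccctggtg
The Ndufaf4 stretch holds 2 overlapping NRF1 core matches, 1 on each strand, starting 111 and 113 bases before the start. In windows from 250 bases before to 50 after the start, searched on both strands, the NRF1 core GCATGCGC was found for 5 of 40 members (12.5%) and 3.05% of all genes in the table. The YY1 motif AAGATGGC was found for 8 (20%) against 3.19%, the ETS motif CCGGAAG for 6 (15%) against 9.93%, and the ERR motif AAGGTCA for 3 (7.5%) against 5.38%. Ndufa3 had a YY1 match 22 bases after its start. Ndufa12 and Ndufaf7 had no match to these 4 motifs in this window. A match describes letters and not a bound site.

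Genes listed as regulators of respiratory gene expression mostly had lower FPKM in Piezo1KO. Of 11 tested, none passed (limma; 4 had an unadjusted p under 0.05, all lower, against 13.7% of tested genes), and the median log2 fold change was -0.34. Both Piezo1KO libraries lay below both WT libraries for 7, against 35.6% of tested genes. These genes are long, with a median of 5687 bases, where the all-gene median was also negative, and their difference from the Nduf genes was not tested. Scaled to all assigned reads 3 of the 11 passed (limma), where 1707 of 11085 tested genes did. The median on that scale was -1.09, against -0.67 over all tested genes. As deposited, the median was -0.43 without Piezo1KO 1 and -0.24 without Piezo1KO 2. Pprc1, a PGC-1-related coactivator, was at 7.28 FPKM in WT 1, 8.57 in WT 2, 3.79 in Piezo1KO 1 and 2.86 in Piezo1KO 2 (log2 fold change -1.05, SE 0.17, limma adjusted p = 0.0913). Ppargc1b, the coactivator PGC-1 beta, was at 1.70, 2.03, 1.00 and 0.502 FPKM (-0.72, adjusted p = 0.148). Both had groups that did not overlap.

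The 7 mitochondrially encoded subunits had far higher FPKM in Piezo1KO than in WT, but none passed (limma). All 7 had an unadjusted limma p under 0.05, higher, against 14.9% of tested genes. The median log2 fold change of the 7 was 3.72. It was 2.90 after scaling to all assigned reads, where 7 of 7 passed (limma), against 1707 of 11085 tested genes. After quantile normalisation it was 1.24, and 3 of 7 passed, against 192 of 11085. As deposited, the median was 4.44 without Piezo1KO 1 and 2.72 without Piezo1KO 2. mt-Nd1, the membrane-arm subunit next to the ubiquinone site, was at 3751 FPKM in WT 1, 2831 in WT 2, 22790 in Piezo1KO 1 and 97388 in Piezo1KO 2 (3.85, SE 0.94, limma adjusted p = 0.129). mt-Nd6, encoded on the other strand, was at 944, 927, 2019 and 6468 FPKM (1.95, SE 0.65, adjusted p = 0.153). mt-Nd5, a proton-pumping subunit, was at 1235, 1140, 2922 and 9842 FPKM (2.17, adjusted p = 0.149). These 2 had the lowest fold changes of the 7, and their genes overlap on opposite strands.

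Log2 fold changes of the other 4 were 3.59 for mt-Nd2 (limma adjusted p = 0.123), 3.80 for mt-Nd3 (0.0520), 3.72 for mt-Nd4 (0.122) and 4.07 for mt-Nd4l (0.0862). mt-Nd genes have near-identical nuclear copies, so their levels are uncertain to that extent. The summed FPKM of mt-Nd genes over that of Nduf genes was 5.78 in WT 1, 4.85 in WT 2, 20.6 in Piezo1KO 1 and 41.7 in Piezo1KO 2. This ratio does not depend on the library scale, and both Piezo1KO libraries were above both WT libraries. As a ratio of median FPKM it was 47.4, 39.2, 60.5 and 131 in the same order, a smaller difference.

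The other nuclear respiratory genes had values similar to the Nduf genes, and the difference between the sets was not tested. Of 38 tested genes of complexes II to V none passed (limma; 14 had an unadjusted p under 0.05, all higher, against 14.9% of tested genes). Both Piezo1KO libraries lay above both WT libraries for 37, against 33.9% of tested genes. The median log2 fold change of the 38 was 0.81. The median was 0.0036 when scaled to all assigned reads (-0.67 over all tested genes), with 20 of 38 positive, and 1 passed. On the deposited scale the median was 1.19 without Piezo1KO 1 and 0.40 without Piezo1KO 2. As deposited, medians were 0.39 for 4 genes of complex II, 1.12 for 9 of complex III, 1.00 for 10 of complex IV and 0.72 for 15 of the ATP synthase. Examples of smallest p in each were Sdhb at 0.52 (limma adjusted p = 0.162), Uqcrc1 at 0.66 (0.135), Cox5b at 1.09 (0.142) and Atp5d at 0.81 (0.132). Of 77 tested mitochondrial ribosomal proteins none passed (limma; 31 had an unadjusted p under 0.05, all higher, against 14.9% of tested genes). For 67, both Piezo1KO libraries lay above both WT libraries, against 33.9% of tested genes. The median of the 77 was 0.63. Their median was -0.10 when scaled to all assigned reads, with 29 of 77 positive. On the deposited scale it was 0.98 without Piezo1KO 1 and 0.33 without Piezo1KO 2. In log2 fold change, the Nduf median of 0.82 lay beside those of the other respiratory complexes combined.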

How the data were processed

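The deposited table held FPKM values per gene and library, with gene names, biotypes, coordinates and exon lengths. Per the submitters' processing notes, reads were trimmed with fastp 0.19.7, counted with featureCounts 1.5.0-p3 and referred to mm10 (GRCm38). No source used here gives the aligner, annotation release, strand setting or FPKM scaling. Libraries were made from total RNA with a SMARTer mRNA kit, per the labels' protocols.

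FPKM times length gave whole reads for 100% of values (tolerance 0.05 reads), which supplied the read totals. Libraries carry the numbers of their titles. The deposited columns number the WT libraries otherwise: WT 1 is the column WT2 and WT 2 is WT3. The test was limma 3.58.1 (R 4.3.3) on log2(FPKM + 1), two-sided, with an intensity trend, for genes whose mean reached 1 FPKM, and Benjamini-Hochberg adjustment at 0.05 over 11085 genes. It had 2 residual degrees of freedom. The code was tried on simulated data whose spread was assumed and not taken from these libraries, and which held no length trend. That trial does not show how the test performs on these data. Lists are described by counts and medians. One member counts in every total but its own values are not reported here. Genes named are otherwise those that passed, the 7 core subunits, the 5 highest and 5 lowest fold changes, the 3 highest levels, Ndufa4, Ndufa4l2, Ndufab1, the mt-Nd genes, up to 2 genes of smallest p per other pathway list, and Piezo1. Members and lists were chosen with earlier results of these data known. Alternatives covered the pseudocount, filter, scaling, normalisation, length, voom on recovered reads, a replicate block and each library left out.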

Additional observations from a re-analysis of the deposited data

How the results depend on the processing

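Against 122 genes passing in the limma fit, 1 passed with no filter, 68 with a mean of at least 5 FPKM, 1707 scaled to all assigned reads, 192 after quantile normalisation and 7 with the length trend removed. Leaving out single libraries gave 0 (without WT 1 and without WT 2, where 723 and 616 genes had an unadjusted limma p under 0.05) to 5859 (without Piezo1KO 1), with 1579 without Piezo1KO 2. Where 1 library of a group was left, it was assumed to vary like the other group. Of the 46 Nduf genes, 1 passed with the other settings, but 0 with no filter and 0 with the length trend removed (12 and 13 at an unadjusted limma p under 0.05), and 0 to 39 with single libraries left out (3 at an unadjusted p without either WT library). Ndufa12 had an adjusted limma p of 0.171 with no filter and kept its direction throughout. The family's median log2 fold change was 0.048 scaled to all assigned reads and 0.45 to 1.27 with single libraries left out. The log2 difference in summed FPKM was 1.02 as deposited, 0.21 scaled to all assigned reads and 0.53 to 1.52 with libraries left out. That of the mt-Nd to Nduf ratio was 2.47, 1.04 from medians, and 1.96 to 2.98 with libraries left out.

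Over 19 named Nduf genes and 14 alternatives, 223 fold changes kept direction and side of the threshold. Those that came to pass it did so only where 1 Piezo1KO library was left out and the other was taken to vary like the WT pair. Another 4 (all Ndufa12) no longer passed it, and 18 changed sign. Scaled to all assigned reads the last were Ndufv2 (-0.018), Ndufab1 (-0.054), Ndufs8 (-0.25), Ndufv1 (-0.29), Ndufaf5 (-0.47), Ndufaf7 (-0.51), Ndufaf6 (-0.59) and Ndufs1 (-0.69). Scaled to reads outside mitochondrial genes they were Ndufaf6 (-0.064) and Ndufs1 (-0.13), after quantile normalisation Ndufs1 (-0.12), and with the length trend removed Ndufs8 (-0.070), Ndufaf5 (-0.12) and Ndufaf6 (-0.39). With libraries left out, Ndufaf6 ranged from -0.014 to 0.30, Ndufs1 from -0.0044 to 0.17 and Ndufaf4 from -0.095 to 0.065. The cause of these changes was not tested. The title numbers of the libraries were not shown to pair them (correlation of deviations -0.033), and a replicate block by number gave 264 genes passing, 1 of them an Nduf gene, Ndufa12 (limma adjusted p = 0.0181). With 2 libraries a group, a member that missed the threshold is not shown to be equal between groups.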
